A study of Homo sapiens with 12 samples.

Results

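Transcripts of 45 splicing regulators were followed in prostate cancer cells given 2 inhibitors of histone demethylases. The genes were taken by name from 60675 genes listed in the count files. They comprised 14 SR proteins and TRA2 proteins, 12 hnRNPs and polypyrimidine tract binding proteins, 6 kinases that phosphorylate SR proteins, 3 factors that recognise the 3′ splice site, 7 other RNA-binding regulators and 3 scaffold proteins of nuclear speckles. All 45 were found. The files hold counts per gene, so isoforms and splicing itself were not measured here. The study analysed splicing under these treatments with rMATS, and those results are not used below.

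The 12 libraries fell into 6 groups of 2. LNCaP is a human prostate cancer cell line that depends on androgen, and C4-2 is a castration-resistant line derived from it. Each library, controls included, came from cells given 1 nM of the synthetic androgen R1881. C4-2 cells received R1881 alone, R1881 with namoline (an inhibitor of KDM1A, 50 µM), R1881 with TCE-5002 (an inhibitor of KDM7A), or R1881 with both inhibitors, called the combination. LNCaP cells received R1881 alone or the combination. By the study, TCE-5002 is selective for KDM7A but also acts on KDM7B (PHF8) and KDM2A, so its effects cannot be assigned to KDM7A alone. By the study's methods the controls were given DMSO vehicle with R1881, and all treatments had the same final DMSO concentration. R1881 alone thus means R1881 without an inhibitor. Treatment lasted 72 h. The series text and the study's methods give different doses of TCE-5002, so its dose is uncertain. A treatment field of the labels describes siRNA work that matches none of these groups, and the groups were taken from the titles. Each group is 1 cell line, and the study's methods describe its 2 libraries as biological replicates.

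Gene counts totalled 14791602 to 20690819 per library. Levels are given below as CPM, counts scaled to a common sequencing depth with library sizes adjusted by TMM. Across genes, which are not independent, the 2 replicates of a group gave Pearson r of 0.992 to 0.997, and the TCE-5002 replicates stood farthest apart. Summed over 8 luminal prostate markers, libraries labelled LNCaP held 324 to 872 CPM and the C4-2 libraries 2110 to 4046 CPM. Over 6 mesenchymal markers the sums were 738 to 890 CPM in libraries labelled LNCaP and 63.1 to 102 CPM in C4-2. In libraries labelled LNCaP most of that sum was VIM, with a mean of 686 CPM under R1881 alone against 2.45 CPM in C4-2. Single markers did not all follow the sums. Under R1881 alone the androgen target KLK3 had a mean of 376 CPM in libraries labelled LNCaP and 217 CPM in C4-2, and the collagen COL1A1 4.44 and 50.1 CPM, while CDH2 and SPARC, a mesenchymal cadherin and a matrix protein, were at 0 in both C4-2 R1881 libraries. Because the summed luminal markers were lower and the mesenchymal ones higher than in C4-2, these samples are called libraries labelled LNCaP. For 1 of the 12 libraries, replicate 1 of the combination labelled LNCaP, the column header in its file names namoline without TCE-5002. The number of transcripts called and many single values that rest on this library are given with and without it. Counts by role, counts in the further lists, the overlap between the lines and some line differences are given only with it.

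Before splicing, RNA-binding proteins mark the exon for the spliceosome or hide it. SR proteins bind exonic enhancers and recruit the U1 and U2 particles through domains rich in arginine and serine, and hnRNPs often act against them by coating exons or flanking introns. CLK kinases in the nucleus and SRPK kinases, mainly in the cytoplasm, phosphorylate SR proteins and so set their location and activity. Many of these regulators control their own transcripts through retained introns or exons that trigger decay. In prostate cancer several of them take part in making androgen receptor splice variants.

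In C4-2 under R1881 alone, 43 of the 45 transcripts were tested. SRSF12 and MBNL2 fell under the filter on low counts. Per transcript length, the highest levels were those of HNRNPK (587 TPM), which binds C-rich RNA, HNRNPA1 (471 TPM) and HNRNPF (462 TPM). The lowest level among the tested transcripts was that of U2AF1 at 1.76 TPM. The levels in TPM are means of 2 libraries and are given as a description.

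In C4-2 the combination changed 25 of the 43 tested transcripts, 18 higher and 7 lower, at an adjusted p under 0.05 in edgeR's quasi-likelihood test. Among all genes tested 50.3% were called, 24.8% as higher and 25.6% as lower. With libraries scaled by total counts alone the split was 15 higher and 14 lower. SRRM1, U2AF1, RBM15 and CLK1 rose at least 2-fold, beside 8.87% of all genes in that direction and 21.7% in either. The kinases CLK1, CLK3 and CLK4, the enhancer-binding proteins TRA2A and TRA2B, and HNRNPC rose, and HNRNPA1, HNRNPM, SRSF6 and MBNL1 fell. The median size of the log2 change was 0.33 in the splicing factors and 0.53 over all genes, which include less abundant transcripts. The 18 transcripts not called had log2 changes from -0.26 to 0.20. Of the 25 calls, 17 held under each alternative that was run.

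**Figure D1:**
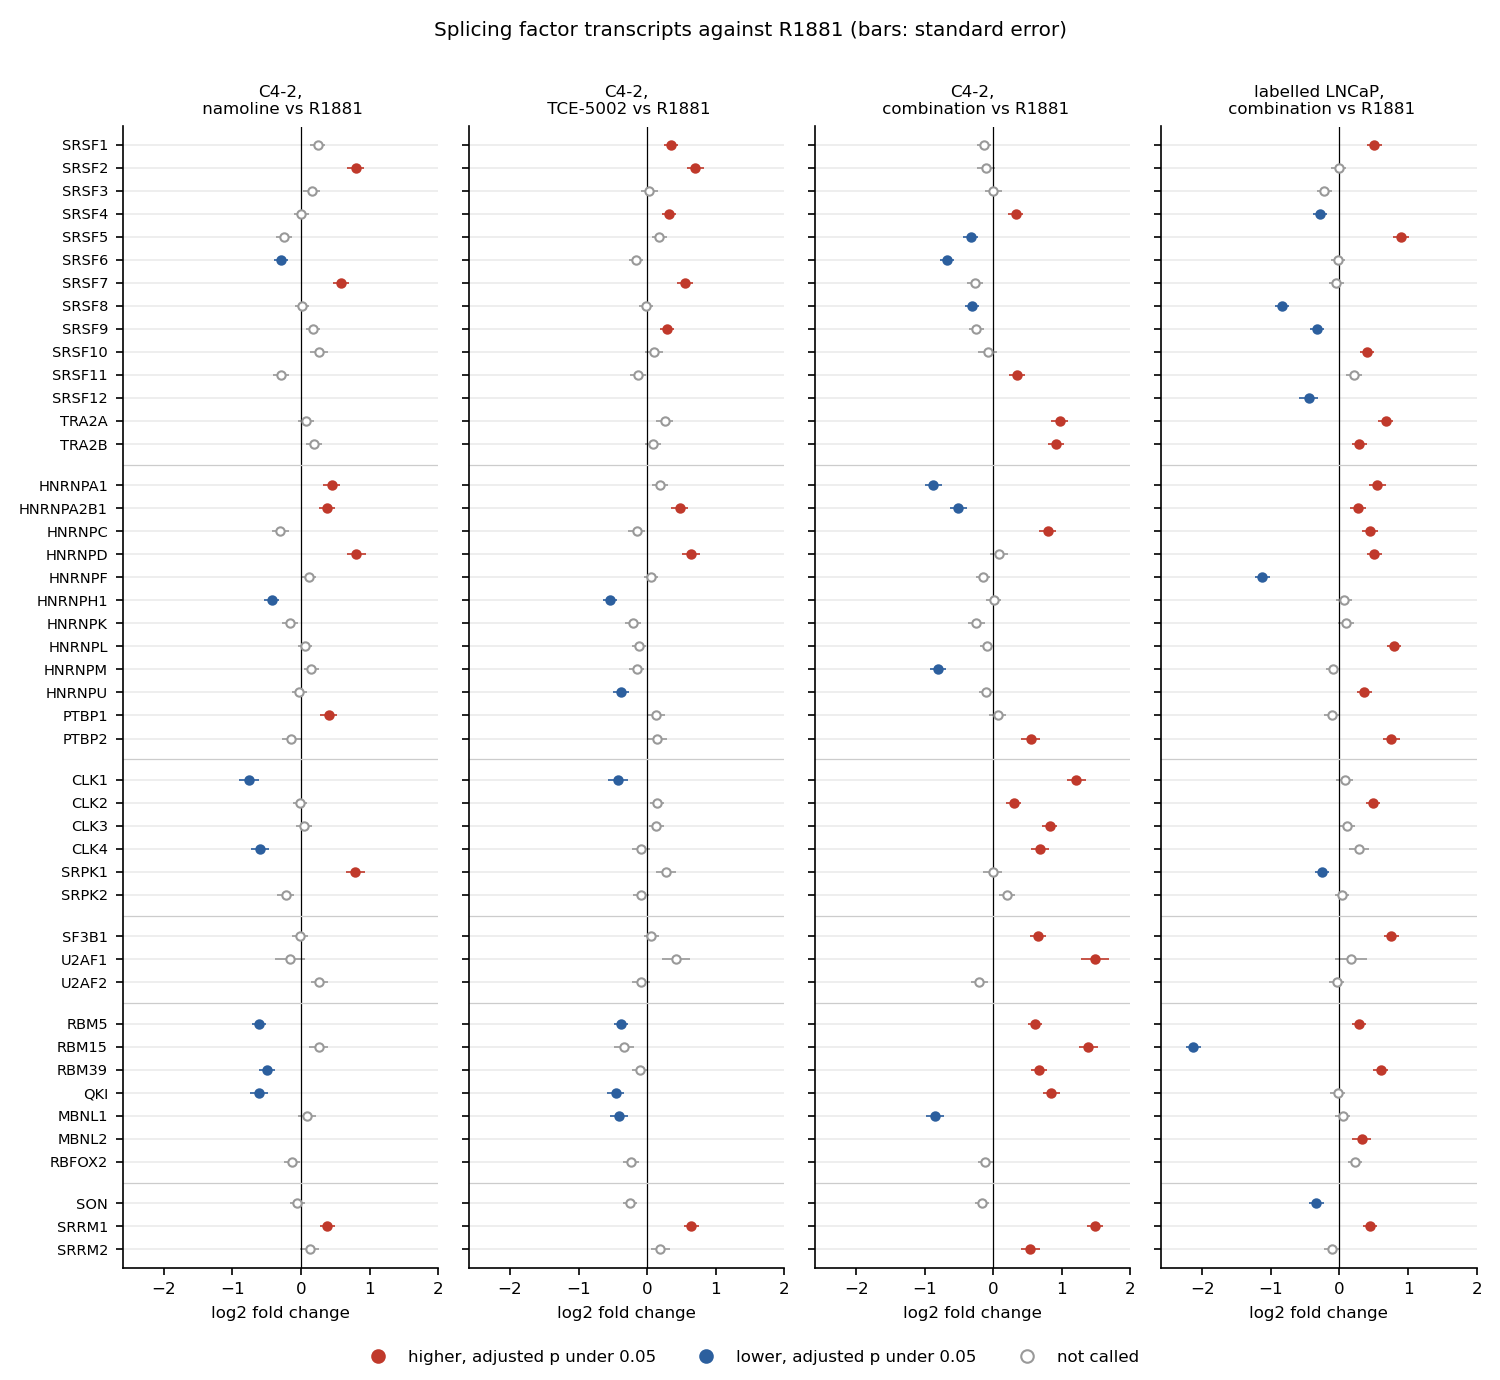
Log2 fold change against R1881 (x axis) of each splicing factor transcript (y axis, grouped by role) in 4 comparisons, with bars for the standard error. Filled red points were called higher, filled blue points lower, and open points were not called, and SRSF12 and MBNL2 were not tested within C4-2. In the C4-2 combination 18 points are red and 7 are blue, and CLK1, CLK4, RBM5, RBM39 and QKI lie left of 0 under namoline and right of 0 under the combination.

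The upstream sequences of 5 genes that later paragraphs turn on are shown here as examples. CLK1, CLK4, RBM15 and SRRM1 rose under the combination in C4-2 and HNRNPA2B1 fell. Other transcripts whose genes have such a sequence, among them U2AF1, HNRNPM and MBNL1, moved further than some of these. Each run is 300 bases from RefSeq (GRCh38.p14), from 250 bases before to 50 bases after the first start site listed, 5′ to 3′ on the strand of the gene. That start site lay 86 bases from the outermost gene start in the count files for CLK1 and 3565 bases for CLK4. For RBM15, SRRM1 and HNRNPA2B1 the distances were 871, 11586 and 783 bases. Which start the counted transcripts used was not measured. Capitals mark 4 motifs searched on both strands, namely the GC box GGGCGG, the CCAAT box CCAAT, the E-box CACGTG and AGAACA, a hexamer that makes up part of an androgen response element. The windows lie at chr2:200864609-200864908 (minus strand) for CLK1, chr5:178627001-178627300 (minus) for CLK4, chr1:110339127-110339426 (plus) for RBM15, chr1:24643052-24643351 (plus) for SRRM1 and chr7:26200697-26200996 (minus) for HNRNPA2B1.
CLK1: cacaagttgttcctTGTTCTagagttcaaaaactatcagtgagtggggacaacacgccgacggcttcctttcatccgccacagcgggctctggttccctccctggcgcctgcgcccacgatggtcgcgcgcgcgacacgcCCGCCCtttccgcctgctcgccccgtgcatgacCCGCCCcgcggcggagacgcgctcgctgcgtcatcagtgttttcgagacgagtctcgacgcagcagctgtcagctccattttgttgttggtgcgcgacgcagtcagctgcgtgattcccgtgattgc
CLK4: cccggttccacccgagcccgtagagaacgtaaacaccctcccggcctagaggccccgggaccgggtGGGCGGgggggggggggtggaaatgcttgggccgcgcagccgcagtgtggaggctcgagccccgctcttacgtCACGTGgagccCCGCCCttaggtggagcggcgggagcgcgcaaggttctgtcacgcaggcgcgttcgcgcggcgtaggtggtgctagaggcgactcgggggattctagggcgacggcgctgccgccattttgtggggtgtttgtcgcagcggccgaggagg
RBM15: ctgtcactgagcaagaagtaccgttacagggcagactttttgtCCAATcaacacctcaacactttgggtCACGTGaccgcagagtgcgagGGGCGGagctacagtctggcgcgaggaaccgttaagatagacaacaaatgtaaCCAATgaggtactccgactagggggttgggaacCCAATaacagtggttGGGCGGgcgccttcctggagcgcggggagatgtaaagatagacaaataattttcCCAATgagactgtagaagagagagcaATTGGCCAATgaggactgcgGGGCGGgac
SRRM1: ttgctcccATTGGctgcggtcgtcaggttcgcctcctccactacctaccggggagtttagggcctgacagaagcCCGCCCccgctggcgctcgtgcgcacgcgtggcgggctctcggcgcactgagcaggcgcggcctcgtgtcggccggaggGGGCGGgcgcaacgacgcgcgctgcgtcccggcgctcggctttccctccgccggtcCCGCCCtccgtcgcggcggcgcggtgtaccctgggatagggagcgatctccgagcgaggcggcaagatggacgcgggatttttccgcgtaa
HNRNPA2B1: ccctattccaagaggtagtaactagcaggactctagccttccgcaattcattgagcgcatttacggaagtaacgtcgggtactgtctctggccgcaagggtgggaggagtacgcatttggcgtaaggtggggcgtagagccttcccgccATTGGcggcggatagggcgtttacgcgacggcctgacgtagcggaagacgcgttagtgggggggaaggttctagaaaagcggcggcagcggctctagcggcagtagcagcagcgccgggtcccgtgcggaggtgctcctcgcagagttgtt

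The CLK1 window held 2 GC boxes, at 110 and 77 bases before the start site, and the hexamer AGAACA, on the opposite strand, at 236 bases before it. In the CLK4 window an E-box stood 111 bases before the start. RBM15 had 6 CCAAT boxes and 3 GC boxes, and HNRNPA2B1 had 1 CCAAT box. A window was found for 39 of the 45 genes, while SRSF2, TRA2A, RBFOX2, HNRNPA1, QKI and RBM39 had none in the table. The GC box was in 23 of the 39 windows (59.0%) and in 44.6% of the windows of 27305 genes. CCAAT was in 13 (33.3%, against 35.7% of all), CACGTG in 6 (15.4%, against 7.43%) and AGAACA in 5 (12.8%, against 14.9%). Of the 15 windows whose transcripts rose under the combination in C4-2, 11 held the GC box and 4 the E-box, of the 6 whose transcripts fell 2 and 1, and of the 16 not called 9 and 1. These matches describe letters in a window and no binding was measured.

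Among the SR and TRA2 proteins, 4 transcripts rose and 3 fell under the combination in C4-2 out of 13 tested. TRA2A (chr7:23504780-23532041), which binds GAA-rich enhancers, measured 56.6 and 45.7 CPM with R1881 and 103 and 101 CPM with the combination. Both treated libraries lay above both controls, and the rise was 0.97 ± 0.12 on the log2 scale (standard error, n = 2 against 2 libraries, adjusted p = 1.76e-05 in edgeR). Its paralog TRA2B went from 144 and 126 to 253 and 267 CPM, a log2 change of 0.92 ± 0.12 (edgeR adjusted p = 2.11e-05).

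SRSF6, an SR protein that also regulates exon choice in signalling genes, fell from 403 and 404 to 255 and 260.3 CPM, by 0.67 ± 0.11 on the log2 scale (edgeR adjusted p = 0.000115). These 3 calls held in each alternative. SRSF4 and SRSF11 were called higher at log2 0.33 and 0.35, and SRSF5 and SRSF8 lower at -0.33 and -0.32, but all 4 lost the call when any single C4-2 R1881 or combination library was left out. For SRSF5 the adjusted p then ran from 0.09 to 0.158. SRSF1, the prototype of the family, and SRSF3 differed from R1881 by -0.14 ± 0.11 and 0.00 ± 0.12 and were not called. With total counts alone 2 of the group were higher and 6 lower, and after GC correction 4 and 5.

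Of the 12 hnRNPs and PTB proteins, 2 rose and 3 fell under the combination, or 2 and 5 with total counts alone. HNRNPA1 (chr12:54280193-54287088), a repressor of exons that also shuttles mRNA, dropped from 674 and 619.8 CPM to 356 and 363 CPM. The difference was -0.87 ± 0.12 on the log2 scale (edgeR adjusted p = 4.42e-05). HNRNPA2B1 (chr7:26189927-26201529), its close relative, went from 672 and 598 to 458 and 449 CPM, a log2 change of -0.51 ± 0.12 (edgeR adjusted p = 0.00306). Without combination replicate 2 or without R1881 replicate 1 that adjusted p was 0.0509 or 0.0589.

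HNRNPM fell by 0.81 ± 0.11 on the log2 scale, from 280.0 and 278 CPM to 171 and 153 CPM (edgeR adjusted p = 3.68e-05). HNRNPC, which coats uridine tracts, moved the other way, from 347 and 307 to 558 and 596 CPM (log2 0.79 ± 0.12, edgeR adjusted p = 9.77e-05). PTBP2, the neuronal paralog of PTBP1, was called higher at 0.54 ± 0.13, and its adjusted p was 0.0589 without R1881 replicate 2. The unstranded counting could not separate HNRNPA2B1 from CBX3 over 4.88% of its exonic length, and HNRNPA1 and HNRNPC have processed pseudogenes that share sequence with them.

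Of the 6 kinases, 4 rose under the combination in C4-2. CLK1 (chr2:200853009-200864744), a nuclear kinase of SR proteins whose own transcript is regulated by intron retention, measured 60.8 and 64.2 CPM with R1881 and 141 and 153 CPM with the combination. The fold change was 2.31 (log2 1.21 ± 0.14, edgeR adjusted p = 9.12e-06), and both treated libraries stood above the other 6 C4-2 libraries. CLK3 went from 110.3 and 108 to 184 and 209 CPM (log2 0.82 ± 0.11, adjusted p = 4.03e-05 in edgeR). CLK4 (chr5:178602664-178630615) went from 28.0 and 28.6 to 44.7 and 47.5 CPM (log2 0.68 ± 0.13, edgeR adjusted p = 0.000509).

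CLK2 was called higher at log2 0.30 ± 0.11, a call lost when any of 6 C4-2 libraries was left out. The cytoplasmic kinases SRPK1 and SRPK2 changed by -0.01 ± 0.14 and 0.20 ± 0.12 and were not called. Across all genes tested, 24.8% were called higher in this comparison.

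Of the 3 factors of the 3′ splice site 2 rose. SF3B1, the U2 subunit that grips the branch site and is mutated in several cancers, went from 380.1 and 377 to 575 and 638 CPM (log2 0.66 ± 0.11, edgeR adjusted p = 0.000293). U2AF1 (chr21:43092956-43107587), which reads the AG at the intron end, had 77 to 119 counts under R1881 and 252 to 255 under the combination. That was 5.57 and 5.00 against 14.5 and 15.8 CPM (log2 1.48 ± 0.20, edgeR adjusted p = 3.19e-05). A near-identical copy on the same chromosome (chr21:6484623-6499261) shares reads with U2AF1, and fragments matching both were left uncounted, so the level of U2AF1 is uncertain. The copy had 0 to 1 counts in the C4-2 libraries and 20 to 47 in libraries labelled LNCaP. U2AF2, its partner on the pyrimidine tract, changed by -0.21 ± 0.13 and was not called.

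Of the 6 other regulators tested, 4 rose and 1 fell. RBM15 (chr1:110338506-110346681), which guides the RNA methyltransferase for m6A, rose from 16.7 and 16.8 to 40.5 and 48.5 CPM, a 2.61-fold change (log2 1.38 ± 0.14, edgeR adjusted p = 2.08e-06). QKI (chr6:163414000-163578596), a STAR-family protein known for exon choice and circular RNA formation, went from 37.9 and 38.0 to 66.4 and 72.4 CPM (log2 0.84 ± 0.13, edgeR adjusted p = 7.58e-05). RBM5 (chr3:50088908-50119021), a regulator of splicing in apoptosis genes, went from 144 and 138 to 212 and 224 CPM (log2 0.60 ± 0.10, edgeR adjusted p = 0.000251).

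RBM39, a relative of U2AF2, rose by log2 0.66 ± 0.12. MBNL1, which steers developmental exon switches, fell by 0.85 ± 0.13, from 156 and 145 to 87.2 and 82.5 CPM (edgeR adjusted p = 9.75e-05). RBFOX2, which binds GCAUG, changed by -0.12 ± 0.11 and was not called. RBM5 shares 9.71% of its exonic length with an antisense gene and 4.40% with its neighbour RBM6, and MBNL1 shares 11.4% with its antisense gene.

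Of the speckle scaffolds SRRM1 (chr1:24631716-24673267), a coactivator with domains rich in serine and arginine, measured 91.8 and 95.1 CPM with R1881 and 252 and 279 CPM with the combination. The change was 2.79-fold (log2 1.48 ± 0.11, edgeR adjusted p = 1.75e-07). SRRM2 rose by 0.54 ± 0.14, with an adjusted p of 0.053 without combination replicate 2. SON changed by -0.16 ± 0.10 and was not called.

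**Figure D2:**
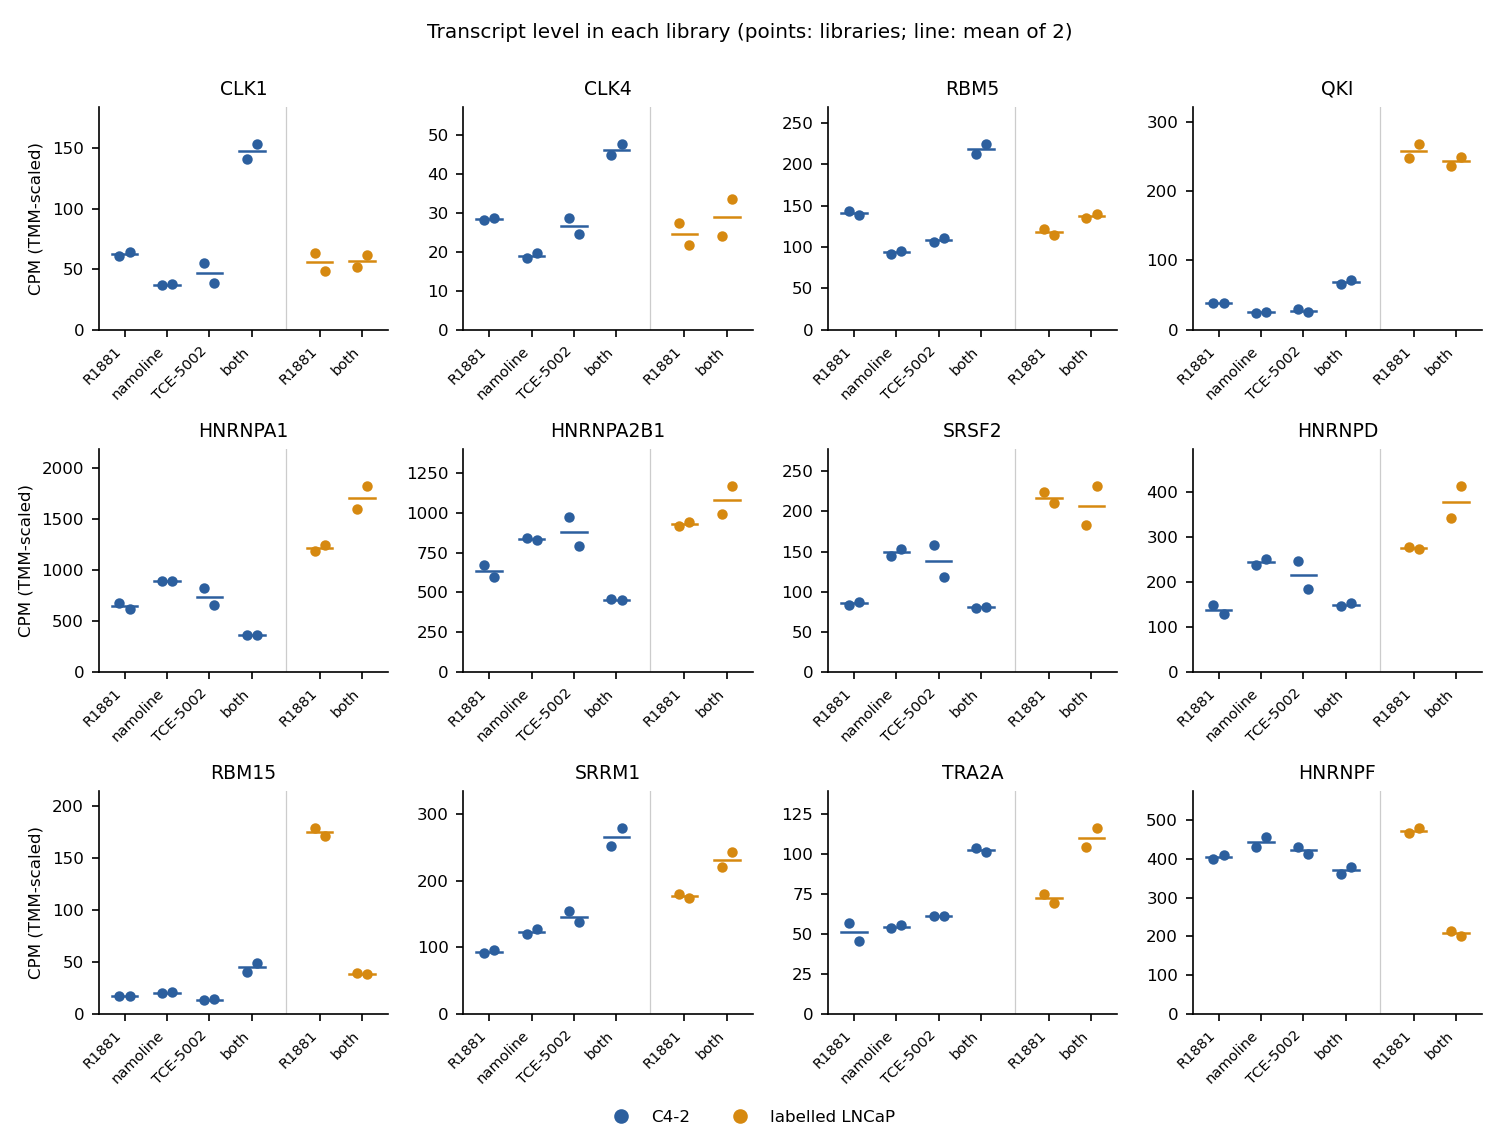
CPM after TMM scaling (y axis, linear from 0) of 12 splicing factor transcripts in each library (points, with a line at the mean of 2) for the groups on the x axis, C4-2 in blue and libraries labelled LNCaP in orange. CLK1 stands at 141 and 153 CPM in the C4-2 combination and at 36.8 to 64.2 CPM in the other C4-2 libraries, while RBM15 stands at 170.4 and 178 CPM with R1881 alone in libraries labelled LNCaP and at 37.7 and 38.8 CPM under the combination.

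Each inhibitor was also given alone. The single treatments and the combination were each set against the same 2 R1881 libraries, so their values below are placed side by side and not counted against each other. Namoline changed 15 of 43, 8 higher and 7 lower, where 35% of all genes were called, 18.7% higher and 16.3% lower. With total counts alone the split was 4 higher and 12 lower. TCE-5002 changed 14 of 43, 8 higher and 6 lower, where 36.5% of all genes were called, 19.9% higher and 16.7% lower. That split was 5 and 11 with total counts alone and 17 and 8 after a correction for GC content. The largest single-agent changes were the 0.81 of HNRNPD under namoline and the 0.70 of SRSF2 under TCE-5002, both below 2-fold, a size that 12.1% and 11.8% of all genes passed. The shares of splicing factors called, 34.9% and 32.6%, were near those of all genes.

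These counts moved when single libraries were left out. Such a fit leaves 1 library in a group and alters the power for every gene. The counts below are not set beside all genes, so they do not describe the splicing factors alone. Without R1881 replicate 1, 9 transcripts were called under namoline and 6 under TCE-5002, and without R1881 replicate 2 5 were called under TCE-5002. Without namoline replicate 2 the namoline count was 8. Leaving out TCE-5002 replicate 1 gave 23 calls under TCE-5002, and leaving out combination replicate 2 gave 9. The TCE-5002 replicates differed at least 2-fold in 45 genes over 10 CPM, against 0 to 3 genes in the other groups, and the part of this in the results was not tested.

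SRSF2, an SR protein concentrated in speckles, rose under each inhibitor. It measured 83.4 and 86.9 CPM with R1881, 145 and 154 CPM with namoline, 159 and 119 CPM with TCE-5002 and 79.8 and 80.9 CPM with the combination. Every single-agent library lay above the controls and both combination libraries lay below them. The log2 changes were 0.80 ± 0.13 for namoline (edgeR adjusted p = 0.000296), 0.70 ± 0.13 for TCE-5002 (adjusted p = 0.000783, edgeR) and -0.11 ± 0.13 for the combination, which was not called. SRSF2 shares 36.7% of its exonic length with MFSD11 on the opposite strand, and reads of the pair were not separated.

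SRSF7, which also exports mRNA, had the same order of groups. It measured 79.4 and 79.4 CPM with R1881, 120.4 and 120.3 CPM with namoline, 128 and 104 CPM with TCE-5002 and 67.8 and 66.7 CPM with the combination. Its log2 changes were 0.59 ± 0.12, 0.55 ± 0.12 and -0.26 ± 0.12, the last not called (edgeR adjusted p = 0.0752). HNRNPD, which binds AU-rich elements and hastens mRNA decay, measured 149 and 128 CPM with R1881, 239 and 252 CPM with namoline, 246 and 185 CPM with TCE-5002 and 147 and 152 CPM with the combination. The calls of SRSF2, SRSF7 and HNRNPD under each single agent held in every alternative run.

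HNRNPH1, which binds G-rich runs, fell from 566 and 526 CPM to 412 and 408 CPM with namoline and to 376 and 376 CPM with TCE-5002. Under the combination it stood at 536 and 578 CPM, overlapping the controls. The log2 changes were -0.43 ± 0.11, -0.54 ± 0.11 and 0.00 ± 0.11, and the namoline call had an adjusted p of 0.113 without R1881 replicate 1.

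CLK1 fell with namoline, to 36.8 and 37.6 CPM, by 0.76 ± 0.15 on the log2 scale (edgeR adjusted p = 0.00101). With TCE-5002 it stood at 54.7 and 38.3 CPM (log2 -0.43 ± 0.14, edgeR adjusted p = 0.0309). This last call was not stable, and without TCE-5002 replicate 2 the log2 change was -0.18 with an adjusted p of 0.166. CLK4 fell with namoline to 18.3 and 19.7 CPM (log2 -0.59 ± 0.13, edgeR adjusted p = 0.0031) and stood at 28.5 and 24.6 CPM with TCE-5002, with 1 library within and 1 below the range of the controls. SRPK1 was 156 and 171 CPM with namoline against 95.3 and 91.6 CPM with R1881 (log2 0.79 ± 0.14, edgeR adjusted p = 0.000539).

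RBM5 stood at 91.4 and 95.3 CPM with namoline and 106 and 111 CPM with TCE-5002, all below the controls. Its log2 changes were -0.61 ± 0.10 (edgeR adjusted p = 0.000452) and -0.38 ± 0.10 (edgeR adjusted p = 0.0113). QKI stood at 24.3 and 25.7 CPM with namoline and 30.1 and 25.1 CPM with TCE-5002, with log2 changes of -0.62 ± 0.13 and -0.46 ± 0.13. Under TCE-5002 both lost their calls without either R1881 library, at adjusted p of 0.137 and 0.0657 for RBM5 and of 0.0929 and 0.0716 for QKI. RBM39 fell by 0.49 ± 0.12 under namoline, a call lost without namoline replicate 2 (adjusted p = 0.0656) and without R1881 replicate 1 (adjusted p = 0.0796).

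HNRNPA1 stood at 892 and 889 CPM with namoline, above both controls (log2 0.45 ± 0.12, edgeR adjusted p = 0.0104). Its adjusted p rose to between 0.0719 and 0.119 when either namoline library or R1881 replicate 2 was left out. HNRNPA2B1 was 845 and 828 CPM with namoline and 974 and 791 CPM with TCE-5002, with log2 changes of 0.38 ± 0.12 and 0.47 ± 0.12. The namoline call was lost without any of 5 libraries and the TCE-5002 call without R1881 replicate 2 (adjusted p = 0.109). SRRM1 was higher in each treatment, at 119 and 128 CPM with namoline, 154 and 137 CPM with TCE-5002 and 252 and 279 CPM with both. Of its calls only the namoline one, at log2 0.39 ± 0.11, was lost when a namoline or R1881 library was left out. With total counts alone the namoline calls of HNRNPA1, HNRNPA2B1 and SRRM1 were lost. Their log2 changes were then 0.29, 0.23 and 0.23 (edgeR adjusted p = 0.0526, 0.131 and 0.0816).

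The 8 C4-2 libraries form a cross of the 2 inhibitors, which allows a direct test of whether the combination equals the sum of its parts on the log2 scale. The interaction was the combination effect minus the namoline effect minus the TCE-5002 effect. It passed the test for 28 of 43 transcripts, 17 positive and 11 negative, where 53.5% of all genes tested did, 25.6% positive and 27.9% negative. After GC correction the split was 18 and 16, and with total counts alone 18 and 9. In size 14 passed 2-fold, 8 positive and 6 negative, beside 35.3% of all genes, 16.7% positive and 18.6% negative. Of the 28 calls, 21 held under each alternative run.

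The largest positive interaction was that of CLK1 at 2.40 ± 0.20 on the log2 scale (edgeR adjusted p = 2.78e-07). QKI stood at 1.92 ± 0.18 (edgeR adjusted p = 7.43e-07), RBM5 at 1.59 ± 0.15 (edgeR adjusted p = 6.42e-07) and CLK4 at 1.36 ± 0.18 (edgeR adjusted p = 2.17e-05). The mean CPM of these 4 was lowest under namoline and highest under the combination. RBM15, U2AF1, RBM39 and HNRNPC had interactions from 1.22 to 1.45, and that of RBM15, the highest of these, was above that of CLK4.

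The negative end held SRSF2 at -1.61 ± 0.18 (edgeR adjusted p = 4.44e-06), HNRNPA1 at -1.51 ± 0.17, SRSF7 at -1.40 ± 0.17, HNRNPA2B1 at -1.37 ± 0.17 and HNRNPD at -1.36 ± 0.19. SRPK1 stood at -1.08 ± 0.20 (edgeR adjusted p = 0.000331). By role, 4 of the 6 kinases were positive and 1 negative, as were 4 and 1 of the 6 other regulators. Of the 12 hnRNPs and PTB proteins 3 were positive and 5 negative, and of the 13 SR and TRA2 proteins 3 and 4. After GC correction 9 of the SR and TRA2 proteins were negative, and with total counts alone 4 hnRNPs were positive and 4 negative. For SRRM1, whose level rose in each treatment, the interaction was 0.45 ± 0.16 with an adjusted p of 0.0236, lost when any of 6 libraries was left out.

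**Figure D3:**
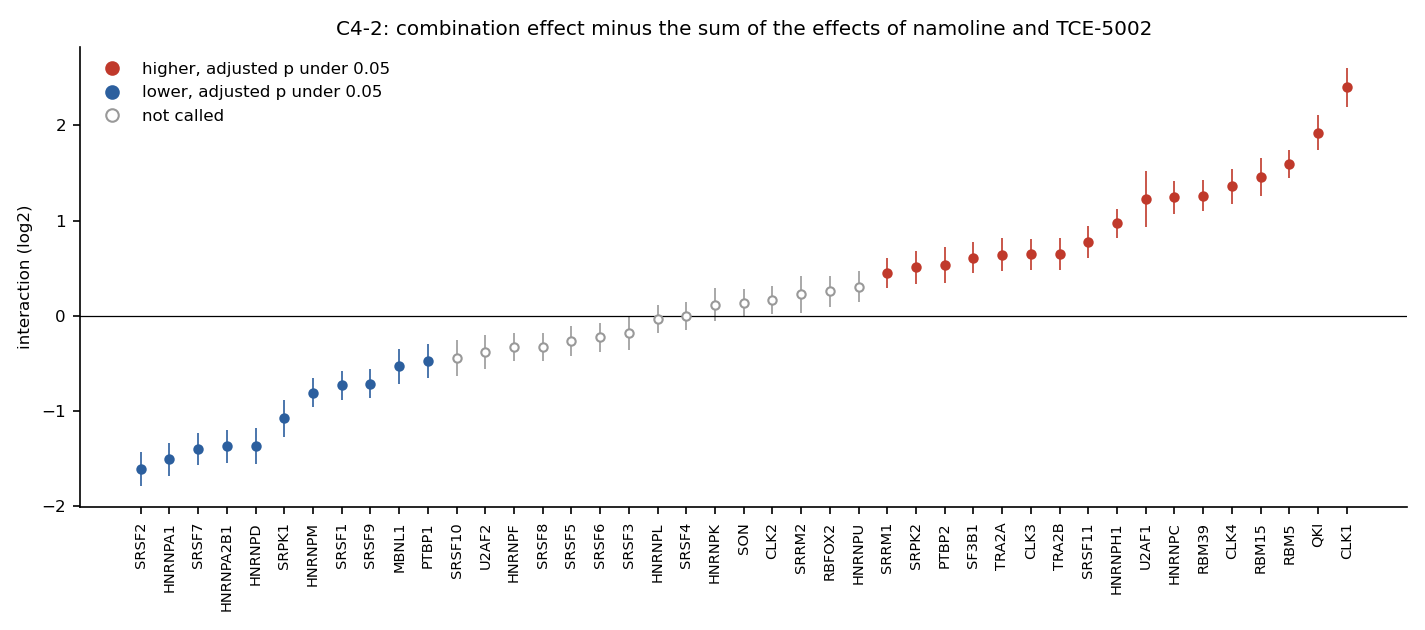
Interaction of namoline and TCE-5002 in C4-2 on the log2 scale (y axis, with bars for the standard error) for the 43 splicing factor transcripts tested, ordered along the x axis by its value. Red points were called positive, blue points negative and open points not called, and the values run from -1.61 for SRSF2 to 2.40 for CLK1.

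The combination was also set against each single agent. Against namoline 36 of 43 transcripts differed, 20 higher and 16 lower, where 55.9% of all genes did, 26.9% higher and 29% lower. At 2-fold the count was 10, beside 27.5% of all genes. Against TCE-5002 30 of 43 differed, 18 higher and 12 lower, where 55.1% of all genes did, 26.4% higher and 28.7% lower. At 2-fold it was 5, beside 26.1%. CLK1 was 3.92-fold higher under the combination than under namoline (log2 1.97 ± 0.15) and higher by log2 1.64 ± 0.14 than under TCE-5002. HNRNPA1 was lower by 1.32 and 1.06 on the log2 scale against namoline and TCE-5002. RBM15 was higher by 1.12 and 1.72, SRRM1 by 1.09 and 0.84, and U2AF1 by 1.64 and 1.06.

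In libraries labelled LNCaP, all 45 transcripts were tested and the combination changed 26, 18 higher and 8 lower. Among all genes tested 56.2% were called, 28% higher and 28.2% lower. With total counts alone the split was 14 higher and 10 lower, and after GC correction 13 and 13. RBM15 and HNRNPF fell at least 2-fold, beside 11.3% of all genes in that direction and 18.7% in either, and 15 of the 26 calls held in each alternative. The 19 transcripts not called had log2 changes from -0.22 to 0.29. Without the library whose header names namoline alone, 20 transcripts were higher and 6 lower, where 52.2% of all genes were called, and SRSF5 passed 2-fold too. The summed luminal markers moved with this treatment, from 803 to 872 CPM with R1881 to 324 to 438 CPM with the combination, and in C4-2 from 2697 to 2861 CPM to 2110 to 2125 CPM. Their part in the splicing factor results was not tested.

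RBM15 stood at 178 and 170.4 CPM with R1881 in libraries labelled LNCaP and at 38.8 and 37.7 CPM with the combination. The log2 change was -2.13 ± 0.11 (edgeR adjusted p = 8.99e-17), and it was -2.15 ± 0.13 without the library with the differing header. HNRNPF (chr10:43385617-43409166), which binds G-rich runs, dropped from 468 and 479 to 215 and 202 CPM, a log2 change of -1.13 ± 0.11 (edgeR adjusted p = 1.3e-10), or -1.17 ± 0.12 without that library. In C4-2 it changed by -0.15 ± 0.10 under the combination and was not called.

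Among the SR proteins, SRSF5 (chr14:69726900-69772005) rose from 239 and 226 to 357 and 478 CPM (log2 0.90 ± 0.12, edgeR adjusted p = 8.47e-08). SRSF8 fell from 113 and 115 to 61.8 and 60.4 CPM (log2 -0.84 ± 0.10, edgeR adjusted p = 2.82e-08). TRA2A rose from 74.9 and 69.1 to 104 and 116 CPM (log2 0.67 ± 0.11, edgeR adjusted p = 2.08e-06). SRSF1 rose by 0.51 ± 0.11, and SRSF2, SRSF6 and SRSF7 changed by -0.01, -0.02 and -0.04 and were not called.

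Of the 12 hnRNPs and PTB proteins 7 rose and 1 fell, beside 28% and 28.2% of all genes. The calls of HNRNPA1, HNRNPD, HNRNPL, PTBP2 and HNRNPF held in each alternative. HNRNPU was called at 0.36, but after GC correction its log2 change was 0.080 (edgeR adjusted p = 0.512). HNRNPC was called at 0.45, and at 0.24 after GC correction with the replicate block it was not (edgeR adjusted p = 0.0595). HNRNPA1 rose from 1184 and 1241 to 1594 and 1820 CPM (log2 0.55 ± 0.12, edgeR adjusted p = 0.000208). HNRNPL, which binds CA repeats, rose from 136 and 125 to 223 and 213 CPM (log2 0.80 ± 0.10, edgeR adjusted p = 7.14e-08). HNRNPD and PTBP2 rose by 0.51 ± 0.11 and 0.75 ± 0.12. HNRNPA2B1 was called at 0.27 ± 0.12 with an adjusted p of 0.0464, which was 0.307 without combination replicate 2 and 0.134 and 0.067 without either R1881 library. After GC correction its log2 change was 0.0085 (adjusted p = 0.947), and with total counts alone 0.15 (adjusted p = 0.196).

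CLK2 was the kinase that rose (log2 0.49 ± 0.10, edgeR adjusted p = 0.000182). CLK1 stood at 63.4 and 48.8 CPM with R1881 and 52.1 and 61.3 CPM with the combination, so the groups overlapped (log2 0.08 ± 0.12). CLK4 changed by 0.29 ± 0.15 and was not called, but without the library with the differing header it was called at 0.50 ± 0.14. SF3B1 rose by 0.75 ± 0.11, RBM39 by 0.60 ± 0.11 and SRRM1 by 0.44 ± 0.10. QKI, at 248 and 267 CPM with R1881 and 237 and 249 CPM with the combination, overlapped too (log2 -0.03 ± 0.10).

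Without the library with the differing header the following 12 transcripts kept their direction and their call. The log2 values were then 1.09 for SRSF5, -0.86 for SRSF8, 0.74 for TRA2A, 0.65 for SRSF1, 0.64 for HNRNPA1, 0.76 for HNRNPL, 0.63 for HNRNPD, 0.82 for PTBP2, 0.47 for CLK2, 0.88 for SF3B1, 0.70 for RBM39 and 0.51 for SRRM1. SRSF4, called lower at -0.28 with all 4 libraries, had -0.25 with an adjusted p of 0.0599 without it.

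The effects of the combination in the 2 lines rest on separate libraries. Of the 18 transcripts called higher in C4-2 and the 18 called higher in libraries labelled LNCaP, 9 were in both lists: TRA2A, TRA2B, HNRNPC, PTBP2, CLK2, SF3B1, RBM5, RBM39 and SRRM1. That was 20.9% of the 43 transcripts tested in both, where 9.06% of the 15283 genes tested in both were called higher in both. In each line alone the splicing factors were called higher more often than all genes. The shares were 41.9% against 24.8% in C4-2 and 40% against 28% in libraries labelled LNCaP. Such shares raise the overlap by themselves, so it is not read as agreement between the lines. The overlap is not given under other scalings. The calls of TRA2A, SF3B1, RBM39 and SRRM1 held in both lines under each alternative. SRSF8 was called lower in both, out of 7 and 8 (2.33%, beside 8.32% of all genes). RBM15 and SRSF4 were called higher in C4-2 and lower in libraries labelled LNCaP (4.65%, beside 6.85% of all genes), and HNRNPA1, HNRNPA2B1 and SRSF5 the reverse (6.98%, beside 6.69%). Of these 5, the calls of RBM15 and HNRNPA1 held in both lines under each alternative. Without the library with the differing header, the 9 transcripts higher in both had log2 changes from 0.30 to 0.88 in libraries labelled LNCaP. SRSF8 then stood at -0.86, RBM15 at -2.15 and SRSF4 at -0.25. HNRNPA1, HNRNPA2B1 and SRSF5 stood at 0.64, 0.38 and 1.09.

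The difference between the lines was tested directly in the 8 libraries with R1881 or the combination. It passed for 25 of 45 transcripts, 11 with a higher effect in C4-2 and 14 with a lower one, where 47.6% of all genes did, 21.7% higher and 25.9% lower. At 2-fold the count was 6, beside 25.3% of all genes. After GC correction the split was 20 and 14. Without the library with the differing header 11 were higher and 16 lower, where 45.2% of all genes were called.

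RBM15 differed most among the well-counted transcripts, by 3.46 ± 0.14 on the log2 scale (edgeR adjusted p = 1.13e-14). U2AF1 differed by 1.26 ± 0.27 (edgeR adjusted p = 0.000506), CLK1 by 1.08 ± 0.15 (edgeR adjusted p = 2.79e-06), SRRM1 by 0.99 ± 0.12 and HNRNPF by 0.92 ± 0.11. QKI and CLK3 differed by 0.82 ± 0.12 and 0.65 ± 0.13. On the other side stood HNRNPA1 at -1.48 ± 0.13 (edgeR adjusted p = 1.8e-09), SRSF5 at -1.28 ± 0.14 (edgeR adjusted p = 1.17e-07), MBNL1 at -0.95 ± 0.12 and HNRNPL at -0.94 ± 0.12. Of the 12 hnRNPs and PTB proteins 7 had a lower effect in C4-2 and HNRNPF a higher one, or 6 and 2 after GC correction. For CLK1 the difference was 0.95 ± 0.15 without the library with the differing header, and for RBM15, U2AF1, SRSF5 and HNRNPA1 it was 3.46, 1.25, -1.50 and -1.59.

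**Figure D4:**
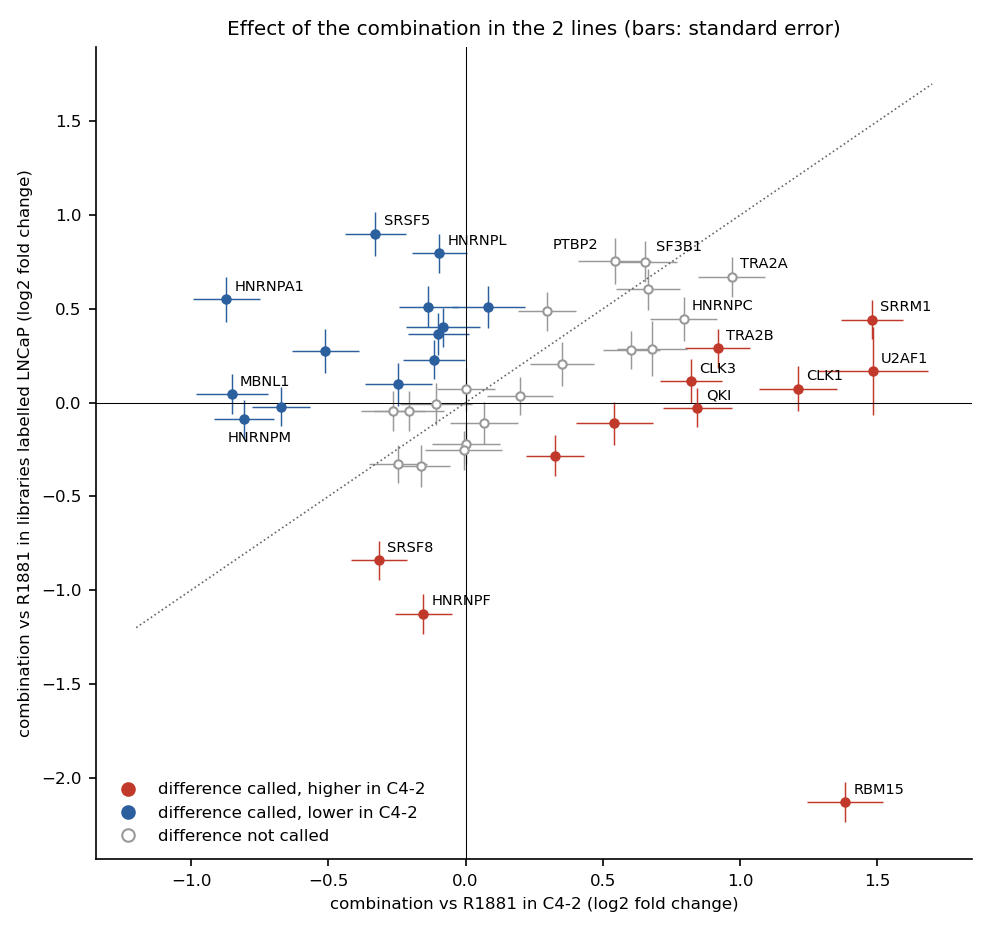
Log2 fold change of the combination against R1881 in C4-2 (x axis) and in libraries labelled LNCaP (y axis) for the 43 splicing factor transcripts tested in both, with bars for the standard error and a dotted line where the values are equal. Filled points differed between the lines at an adjusted p under 0.05, red with a higher and blue with a lower effect in C4-2. RBM15 lies alone at the lower right (1.38 and -2.13), and HNRNPA1 at the upper left (-0.87 and 0.55).

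Under R1881 alone, 37 of 45 transcripts differed between C4-2 and libraries labelled LNCaP, 9 higher and 28 lower in C4-2, where 76.8% of all genes did, 37.8% higher and 39% lower. At 2-fold 12 differed, beside 50.5% of all genes. RBM15 was lower by 3.35 ± 0.10 on the log2 scale, at 16.7 and 16.8 CPM in C4-2 against 178 and 170.4 CPM. QKI was lower by 2.73 ± 0.09, at 37.9 and 38.0 CPM against 248 and 267 CPM. SRSF4, SRPK1, SRSF2, RBFOX2 and PTBP1 were lower by 1.90, 1.71, 1.32, 1.19 and 1.02.

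CLK3, SRPK2 and MBNL1 were higher in C4-2 by 1.18, 1.11 and 1.08, and HNRNPL and SRSF6 by 0.99 and 0.84. CLK1 and CLK4 differed by 0.18 ± 0.11 and 0.23 ± 0.14 and were not called. Of the 12 hnRNPs and PTB proteins 9 were lower in C4-2, as were 9 of the 14 SR and TRA2 proteins. Line and marker profile cannot be told apart in this comparison.

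SRSF12 and MBNL2 were almost confined to libraries labelled LNCaP. SRSF12 (chr6:89095959-89118081), an SR protein that can repress splicing, had 473 and 506 counts with R1881 and 256 and 318 with the combination there. In C4-2 it had 7 and 1 counts with R1881, 0 and 3 with TCE-5002 and 0 in the other 4 libraries. The level under R1881 was 103 times higher in libraries labelled LNCaP (95% counting interval 52.3 to 240), and under the combination at least 177-fold higher, taking 3 counts over the 2 libraries as the limit that a count of 0 allows. Within libraries labelled LNCaP it fell by 0.45 ± 0.14 under the combination (edgeR adjusted p = 0.00683), a call lost without R1881 replicate 2 (adjusted p = 0.0687).

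MBNL2 (chr13:97221434-97394120), the paralog of MBNL1, had 424 and 558 counts with R1881 and 445 and 540 with the combination in libraries labelled LNCaP. In C4-2 it had 0 and 3 counts with R1881 and 0 in the other 6 libraries. The ratio under R1881 was 277 (95% counting interval 94.4 to 1344), and under the combination at least 305-fold. MBNL1 had the opposite order, with 156 and 145 CPM in C4-2 under R1881 against 70.5 and 74.4 CPM. These intervals cover counting error only.

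The rest of the splicing machinery was described with 9 lists of genes outside the 45. In the list of Prp19 complex and catalytic step proteins, which open the active spliceosome, 16 of 22 rose under the combination in C4-2 and 17 of 22 in libraries labelled LNCaP, where 24.8% and 28% of all genes did. The median log2 changes were 0.47 and 0.43, against -0.03 and -0.00 over all genes. With total counts alone 12 and 13 rose, and after GC correction 18 and 11. The same list had 2 higher and 7 lower under namoline and under TCE-5002 in C4-2, beside 18.7% and 16.3% of all genes under namoline and 19.9% and 16.7% under TCE-5002. The split became 4 and 7 under namoline after GC correction and 1 and 8 under TCE-5002 with total counts alone. XAB2, a member of the catalytic complex that also serves in DNA repair, rose from 41.3 ± 4.9 to 119 ± 4.3 CPM (SD, n = 2) in C4-2 (edgeR adjusted p = 8.63e-07), and by 0.38 on the log2 scale in libraries labelled LNCaP.

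Among 18 U2 and branch-site proteins, which include the partners of SF3B1, 12 rose under the combination in C4-2 with a median of 0.46, while 8 rose and 4 fell in libraries labelled LNCaP. Scaling by total counts changed the latter to 6 higher and 8 lower. SF3A2, a U2 subunit, was higher by 0.99 ± 0.15 in C4-2 and lower by 0.45 in libraries labelled LNCaP (edgeR adjusted p = 9.9e-05 and 0.000698). Among 22 tri-snRNP proteins 8 rose and 4 fell in C4-2, with PRPF4 up by 1.38 ± 0.13 and LSM5 down by 0.61 ± 0.16. PRPF4 was also higher under namoline (1.18) and TCE-5002 (0.73). Among 15 U1 and Sm proteins 3 rose and 3 fell (2 and 5 with total counts alone), among them PRPF39 at 1.15 ± 0.12 and SNRPF at -0.59 ± 0.16.

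The counts that follow stand beside 24.8% of all genes higher and 25.6% lower in C4-2, and 28% and 28.2% in libraries labelled LNCaP. Of 10 minor spliceosome proteins 4 rose and 3 fell in C4-2, with ZRSR2, a relative of U2AF1, at 1.05 ± 0.15 and SNRNP48 at -0.66 ± 0.13. Of 16 exon junction and nonsense-mediated decay proteins 7 rose, among them SMG6 by 0.87 ± 0.12. In libraries labelled LNCaP 5 of the 16 rose and 6 fell (3 and 9 after GC correction), and SMG6 fell by 0.51. Of 20 further hnRNPs 3 rose and 5 fell in C4-2, or 1 and 9 with total counts alone. HNRNPDL was higher by 0.74, 0.49 and 0.67 in C4-2 and by 0.60 in libraries labelled LNCaP. Of 22 further splicing regulators tested 3 rose and 7 fell (8 and 9 after GC correction), with the speckle protein PNN at 0.96 ± 0.12 and the neuronal regulator NOVA1 at -1.34 ± 0.20. Of 10 further kinases and transport factors of SR proteins 5 rose and 1 fell in C4-2, or 2 and 1 with total counts alone, with PPIG at 0.78 ± 0.15. In libraries labelled LNCaP 1 of these 10 rose and 5 fell.

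**Figure D5:**
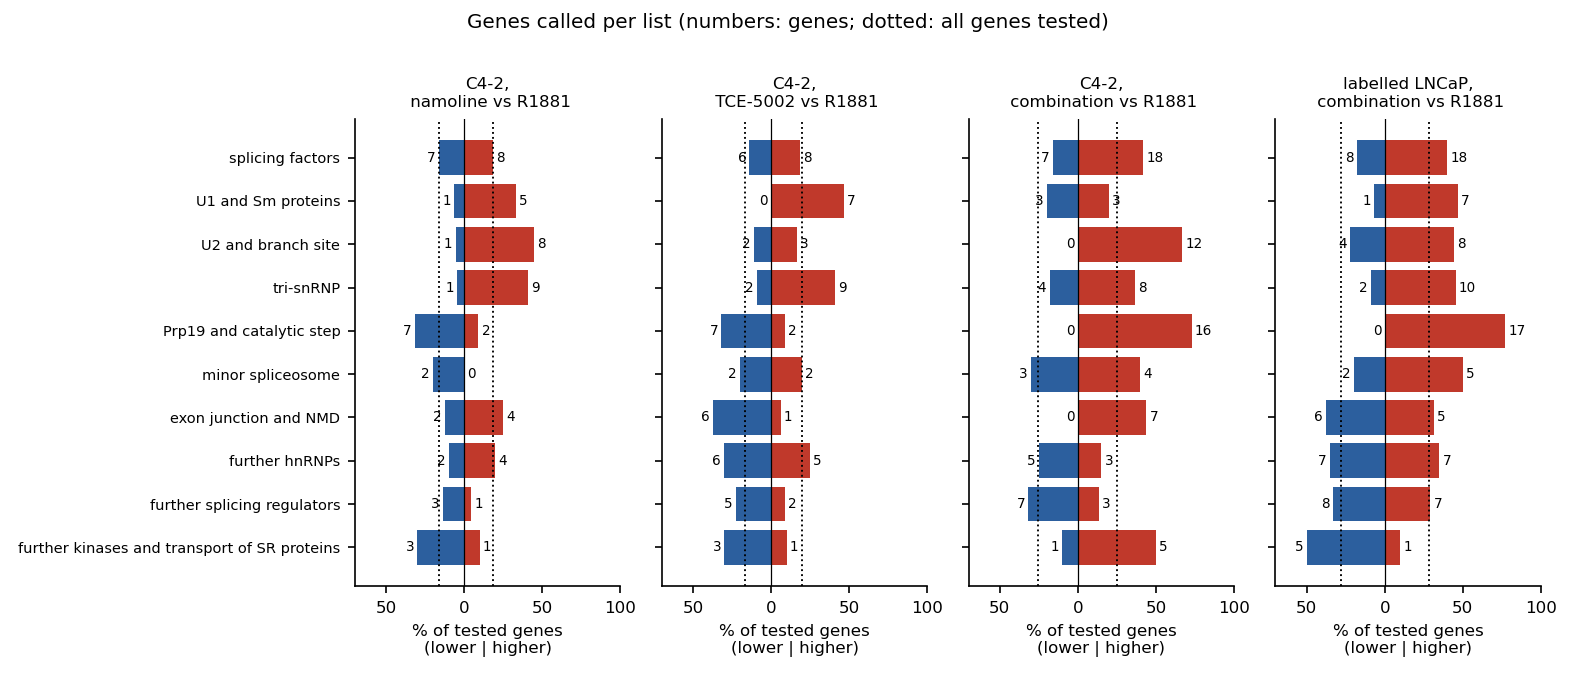
Share of tested genes called higher (red, right of 0) or lower (blue, left of 0) at an adjusted p under 0.05 in the splicing factors and 9 further lists (y axis) for 4 comparisons, in percent on the x axis, with the number of genes beside each bar and dotted lines at the shares over all genes tested. The bars of the Prp19 and catalytic step list reach 16 and 17 of 22 genes higher under the combination in C4-2 and in libraries labelled LNCaP, and 7 of 22 lower under each single inhibitor.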

How the data were processed

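The deposited values were whole counts of fragments per gene in 12 files, made by the authors with TrimGalore, STAR on GRCh38 and featureCounts (v1.5.0-p1, Ensembl release 83), per the file headers and the study's methods, from polyadenylated RNA. No strand option was set and multi-mapping fragments were left out, so overlapping and near-identical genes were not separated. Groups came from the titles.

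Counts were scaled by TMM, filtered with filterByExpr and tested with edgeR 4.0.16 (quasi-likelihood F test, limma 3.58.1, R 4.3.3), and p-values were adjusted by Benjamini-Hochberg across every gene tested. The 8 C4-2 libraries were fitted together, the 4 libraries labelled LNCaP on their own, and line differences on the 8 libraries with R1881 or the combination. A call is an adjusted p under 0.05. With 2 libraries per group, precision rests on variance shared across genes. Library totals were 14791602 to 20690819 counts. The standard error is the absolute log2 change over the square root of F. Alternatives were DESeq2 1.42.0, other scalings, no filter, GC correction, a replicate block and leaving out each library.

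Full values were given for members called at 2-fold or more in a comparison with R1881, the member of each role with the largest C4-2 combination change, the 6 with the largest interaction among those called with opposite signs by an inhibitor and by the combination, the 4 with the largest line or baseline differences, and those not tested. Other members were named after their values were seen. From each further list, the called gene that rose most and the one that fell most in the C4-2 combination (at least 10 CPM) were named, except 1 result that is not reported here. The members and lists were chosen with earlier results of these data known.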

Additional observations from a re-analysis of the deposited data

Results flagged for a closer look

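By the test of the difference itself, the effect of the combination differed at least 2-fold between C4-2 and libraries labelled LNCaP for 6 of 45 transcripts. Among all genes tested 25.3% did. On the log2 scale the difference (C4-2 minus LNCaP) was 3.46 for RBM15, 1.26 for U2AF1 and 1.08 for CLK1. It was -1.48 for HNRNPA1 and -1.28 for SRSF5. For SRSF12 it was -4.63 (edgeR adjusted p = 0.022), but this value rests on 8 counts in the C4-2 R1881 libraries and depends on the prior count of the fit, and without C4-2 R1881 replicate 1 it was -2.96 with an adjusted p of 0.276. Without the library whose header differs the values were 3.46 for RBM15, 1.25 for U2AF1, 0.95 for CLK1, -1.59 for HNRNPA1, -1.50 for SRSF5 and -4.71 for SRSF12. Line and marker profile cannot be told apart here.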

How the results depend on the processing

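Over the 9 comparisons, 306 of 3556 combinations of a called splicing factor and an alternative lost the call. The median change of the splicing factors reversed under scaling by total counts in 4 comparisons, to -0.113 (namoline), -0.0376 (TCE-5002), -0.129 (C4-2 combination) and -0.00648 (combination, libraries labelled LNCaP), while the median of all genes moved by -0.155, -0.0963, -0.131 and -0.120. That of the interaction moved by 0.119. GC correction raised the calls under namoline to 23 and under TCE-5002 to 25, and GC correction with the replicate block gave 23 and 25. A fit on only the 4 libraries compared gave 7 calls under TCE-5002, with fewer samples. Leaving out 1 library gave 8 to 22 calls under namoline and 5 to 23 under TCE-5002. In the other comparisons such counts stayed within 1.5 times the value reported, 18 to 30 for the C4-2 combination, 19 to 26 for libraries labelled LNCaP and 22 to 35 for the interaction. The total number of calls stayed within 1.5 times the value reported in the other alternatives, but the split by direction did not. Lower calls went from 7 to 14 in the C4-2 combination with total counts alone, and from 8 to 13 in libraries labelled LNCaP after GC correction. The causes were not tested, and the counts without 1 library are not set beside those of all genes here.

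Replicate numbers were shared between groups, but deviations of libraries with the same number correlated at -0.0120 to 0.268 between C4-2 groups and at -0.00625 between the groups labelled LNCaP, and 3 of the 6 C4-2 values were over 0.1. Since not every value was, and no label ties a number to a batch, the numbers were not taken to pair the samples. With the replicate number as a block the calls were 18 under namoline, 14 under TCE-5002, 27 under the C4-2 combination, 24 in libraries labelled LNCaP and 31 for the interaction.

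Low counts limited the results on U2AF1, with 77 to 255 counts, and on SRSF12 and MBNL2 in C4-2. For U2AF1, fragments shared with its copy were left uncounted.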
